A study of Mus musculus with 9 samples.

Results

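The transcript composition of the saline-treated mouse pancreas was described from the 3 Control libraries of a 9-library series, with every listed gene (17132) included. The libraries were chosen by the group label alone, Control, and no measured value was used for that choice. The gene class lists were drawn up with earlier results of these data known. The series compared 3 groups of C57BL/6 mice in a caerulein and lipopolysaccharide (LPS) model of acute pancreatitis, with and without Qingyi Decoction. The Control mice were wild type, received 7 hourly intraperitoneal injections of normal saline, and were given saline in place of medication at 0 and 8 h. The pancreas was collected 24 h after the first injection, and its polyadenylated RNA was sequenced. Each library carries the number of its mouse (Control 43, Control 44 and Control 45). The labels give no age, and saline-injected mice are not untreated mice. No group was compared and no test was run: all values are levels, ranks, shares and their spread over the 3 mice.

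Most of the pancreas is exocrine. Its acinar cells make digestive enzymes, largely as inactive precursors (zymogens), pass them through the endoplasmic reticulum (ER) and Golgi into zymogen granules, and release them into the ducts when stimulated by cholecystokinin or acetylcholine. Duct cells add bicarbonate-rich fluid, and islets of endocrine cells secrete insulin, glucagon and other hormones into the blood. A piece of pancreas therefore yields RNA of many cell types, in amounts that depend both on how many cells there are and on how much RNA each holds. In bulk RNA, fewer cells of a type and less RNA per cell cannot be told apart.

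Levels are given as TPM, transcripts scaled to a fixed total per library and corrected for length, on which genes can be compared within a library. Each library sums to 1000000 TPM over the listed genes, so that 10000 TPM is 1% of transcripts. All listed genes that the reference places lie on nuclear chromosomes, and the 101 unplaced genes held 0.200% of TPM. Shares of transcripts are therefore shares of the listed genes, with mitochondrially encoded RNA essentially left out of the total. The libraries held between 19838214 and 20212744 estimated counts, and 3 counts corresponded to 0.148 to 0.151 CPM (counts for each 1000000 in the library). Over the 5239 genes at 1 TPM or more in all 3 libraries, the correlation of log2(TPM + 1) across genes was 0.979 to 0.982 for the 3 pairs of mice; genes are not independent replicates. Each mouse counted as 1 sample, and no library was a repeat deposit of another: the chi-square of the counts per degree of freedom was 14.8 for Control 43 against 45, and 39.1 and 44.2 for Control 44 against each of them. By this measure, to which abundant genes add most, Control 44 stood apart most. It had a lower share of amylases (19.3% of transcripts, against 24.6% and 23.6%) and higher levels of all 7 chymotrypsins and elastases and all 6 lipase genes. Of the 484 genes with a mean of at least 20 TPM, Control 44 was farthest from the other mice in 216, Control 43 in 138 and Control 45 in 130. Some wide differences lay in small groups of genes. Control 45 was high in Lcn2, Saa3 and Reg3g, Control 43 in haemoglobin transcripts, and Control 44 was low in Reg2 and Reg3b. Without Control 44 the share of amylases was 24.1%, against 22.5% over the 3 mice. That of chymotrypsins and elastases was 24.9%, against 26.6%. The genes named here are described below with the value of each mouse.

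The tissue label was checked against acinar markers, on lists drawn up with earlier results of these data known. Some symbols of the enzyme lists, including several trypsinogens, had no match among the genes measured and are not counted. The lists matched 38 digestive enzyme genes, and 37 of these were at 1 TPM or more in all 3 libraries. Counted among them, at low levels, are the lysosomal ribonucleases Rnaset2a and Rnaset2b and the salivary and liver amylase Amy1. Together the 38 genes held 84.5% of transcripts in Control 43, 84.9% in Control 44 and 83.7% in Control 45 (84.4% ± 0.60, SD, n = 3). Counting reads without correction for length gave 84.9%, 84.4% and 83.6%, each with a 95% Wilson interval narrower than the differences between mice (84.86 to 84.89% in Control 43, 84.34 to 84.37% in Control 44 and 83.61 to 83.65% in Control 45). Intervals and floors here cover counting error only. The acinar transcription factors Ptf1a, Rbpjl, Bhlha15 and Nr5a2 were above 1 TPM in every library. The enzymes, Reg proteins and other granule and protective proteins, 66 listed genes in all, held 92.1%, 92.0% and 91.8% of transcripts.

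The transcriptome was concentrated in very few genes. In each of the 3 mice 5 genes made up 50% of transcripts. Reaching 90% took 23, 23 and 25 genes in Control 43, 44 and 45, and reaching 99% took 2128, 2274 and 2414. The effective number of genes, which is the number of equally abundant genes that would give the same Shannon entropy, was 29.5 ± 1.13 (SD, n = 3) out of 17132. The 10 most abundant genes held 71.2% ± 0.56 of transcripts, the first 30 held 91.5% ± 0.36, the first 100 held 95.2% ± 0.14 and the first 1000 held 98.2% ± 0.08. Of the 30 genes with the highest mean TPM, 27 were among the first 30 of every mouse.

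**Figure D1:**
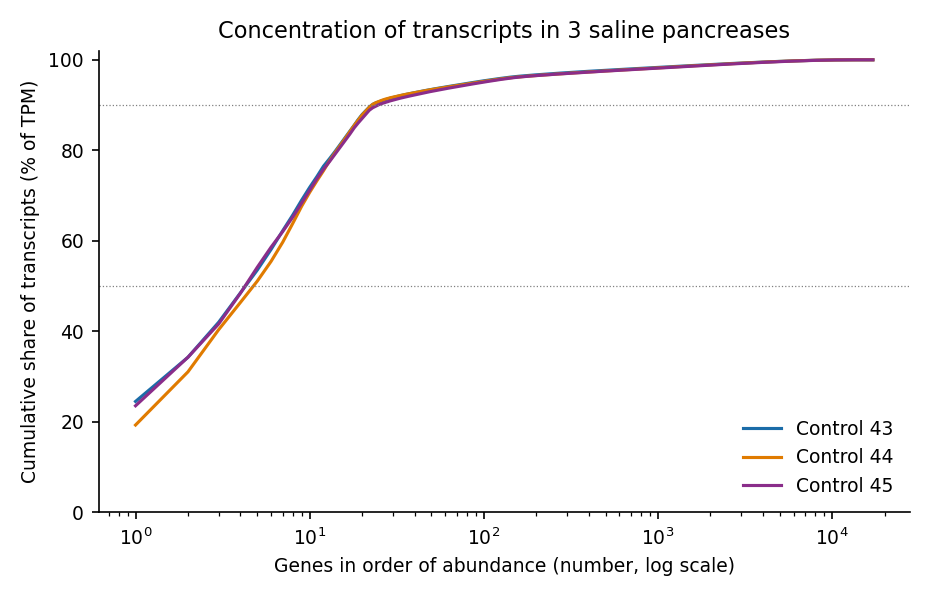
Cumulative share of transcripts (% of TPM, vertical axis) against the number of genes taken in order of abundance (horizontal axis, log scale), with 1 line for each saline mouse. The 3 lines lie close together, pass 50% at 5 genes and reach 91.1 to 91.7% at 30 genes.

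Levels spanned more than 5 orders of magnitude on the TPM scale. The 20 genes with a mean of at least 10000 TPM held 87.5% ± 0.45 of transcripts, and the 15 genes between 1000 and 10000 TPM held 4.61% ± 0.21. Another 124 genes between 100 and 1000 TPM held 4.13% ± 0.29. Below these, 771 genes of 10 to 100 TPM shared 1.92% ± 0.03, and 5009 genes of 1 to 10 TPM shared 1.57% ± 0.06. The remaining 11193 genes, under 1 TPM, held 0.267% ± 0.022. Of all listed genes 5239 (30.6%) reached 1 TPM in every library, while 1809 (10.6%) had no count in any. The enzymes took 16590802 to 17050476 counts of each library, which left 3015179 to 3247412 counts for all 17094 other genes; a gene not seen at this depth is not shown to be absent.

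Before the values, the sequences in front of the most abundant genes are shown, because many of these genes shared a promoter feature. RNA polymerase II promoters with a TATA box, an AT-rich element about 30 bases before the transcription start, are a minority in mammals and are common among highly active, cell-type-specific genes. RefSeq promoter windows (GRCm38.p6, from 250 bases before to 50 bases after the start) were matched by gene identifier for 24 of the 30 most abundant genes and for 13442 of all listed genes. The string TATAAA on the gene's strand, starting 16 to 45 bases before the start, was present in 10 of these 24 windows (41.7%). It was present in 4.83% of the genes with a window ranked 31 to 300, in 1.80% of those ranked 301 to 3000, in 2.51% of all listed genes and in 2.68% of the 27025 genes of the whole promoter table. Outside the 24, a gene with several windows counted once, if any of them held the string. The last 60 bases before the start are printed for those 10 genes on the gene's strand, 5′ to 3′, with TATAAA in capitals.
Amy2a5, chr3:113258700-113258759, minus strand: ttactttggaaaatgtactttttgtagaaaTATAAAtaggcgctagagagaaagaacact
Try4, chr6:41302212-41302271, plus strand: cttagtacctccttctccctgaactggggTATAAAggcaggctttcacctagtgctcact
Prss2, chr6:41521716-41521775, plus strand: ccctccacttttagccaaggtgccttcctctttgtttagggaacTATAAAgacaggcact
Cela1, chr15:100687921-100687980, minus strand: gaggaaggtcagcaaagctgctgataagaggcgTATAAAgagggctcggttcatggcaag
Pnlip, chr19:58670305-58670364, plus strand: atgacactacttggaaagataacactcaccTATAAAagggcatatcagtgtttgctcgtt
2210010C04Rik, chr6:41035510-41035569, minus strand: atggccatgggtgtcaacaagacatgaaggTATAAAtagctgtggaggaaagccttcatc
Reg1, chr6:78425923-78425982, plus strand: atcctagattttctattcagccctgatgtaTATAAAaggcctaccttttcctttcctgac
Reg2, chr6:78405095-78405154, plus strand: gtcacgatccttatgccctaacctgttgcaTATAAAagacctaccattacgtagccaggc
Gp2, chr7:119459273-119459332, minus strand: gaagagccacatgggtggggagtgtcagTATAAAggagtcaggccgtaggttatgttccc
Reg3b, chr6:78370825-78370884, plus strand: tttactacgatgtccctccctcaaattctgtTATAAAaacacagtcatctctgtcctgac

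In 9 of these 10 windows the string began 27 to 32 bases before the annotated start, and in Prss2 it began 16 bases before it. The 10 genes are an amylase, 3 trypsinogens, an elastase, a lipase, 3 Reg proteins and the granule membrane protein Gp2. Genes with TATAAA in this place gave 48.3% of all transcripts in Control 43, 42.9% in Control 44 and 47.1% in Control 45 (46.1% ± 2.86). Amy2a5 alone gave 22.5% of transcripts on average, Try4 6.43% and Prss2 4.57%. The share thus rests on a few abundant genes among the 337 listed genes with the string. Genes without a window, which held the rest beyond 86.6% of all TPM, count here as not having the string; over genes with a window alone the share was 53.3% ± 3.39. Control 44 was lowest, as it was for Amy2a5. For comparison, the corresponding bases of 3 abundant genes without the exact string are shown.
Ctrb1, chr8:111691011-111691070, minus strand: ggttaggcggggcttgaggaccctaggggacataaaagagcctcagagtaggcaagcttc
Cela2a, chr4:141826006-141826065, minus strand: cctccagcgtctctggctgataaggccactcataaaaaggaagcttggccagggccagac
Cela3b, chr4:137430521-137430580, minus strand: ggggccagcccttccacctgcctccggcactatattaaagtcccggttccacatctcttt
These 3 hold AT-rich runs in the same stretch without those 6 letters, and the absence of the exact string says only that. Not every other window without the string has such a run, and that of Klk1 has none. In Cpb1 the string lies after the annotated start, outside the place searched, so the count also depends on where the start is annotated.

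The acinar factor PTF1, made of PTF1A, RBPJL and a common partner, binds an E-box such as CACCTG close to the string TGGGAA. Both strings were searched on both strands of the whole 300-base window, and matches of different strings were counted separately even where they overlapped. The string TGGGAA was in 66.7% of the 24 windows of the most abundant genes and in 28.3% of all genes of the table. CACCTG was in 54.2% and 22.6%. Both strings within 20 bases of each other occurred in 12.5% of the 24 windows, which is 3 genes, and in 1.08% of all genes of the table. A string match is a description of the sequence, not a binding site. The 24 windows were also poor in CpG: their median ratio of observed to expected CpG was 0.177, against 0.390 over all genes of the table, 0.687 over the listed genes and 0.870 over the cytosolic ribosomal proteins.

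Among the enzymes, proteases held the largest share. Trypsinogens, chymotrypsinogens, proelastases and procarboxypeptidases (22 genes) together gave 48.2%, 52.8% and 49.9% of transcripts in Control 43, 44 and 45 (50.3% ± 2.36). By class, chymotrypsins and elastases held 26.6% ± 3.02 and amylases 22.5% ± 2.77. Trypsinogens followed with 18.4% ± 1.04, and lipases with colipase held 10.0% ± 1.28. The smaller enzyme classes were carboxypeptidases, at 5.27% ± 0.19, and nucleases, at 1.56% ± 0.055. Neighbours at the head of this order were not separated by the spread between mice: in Control 43 chymotrypsins and elastases and amylases both stood at 24.6%, and the lowest amylase share (19.3%, Control 44) lay below the highest trypsinogen share (19.4%, Control 45). From trypsinogens downward, the ranges of the 3 mice did not overlap between neighbouring classes.

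**Figure D2:**
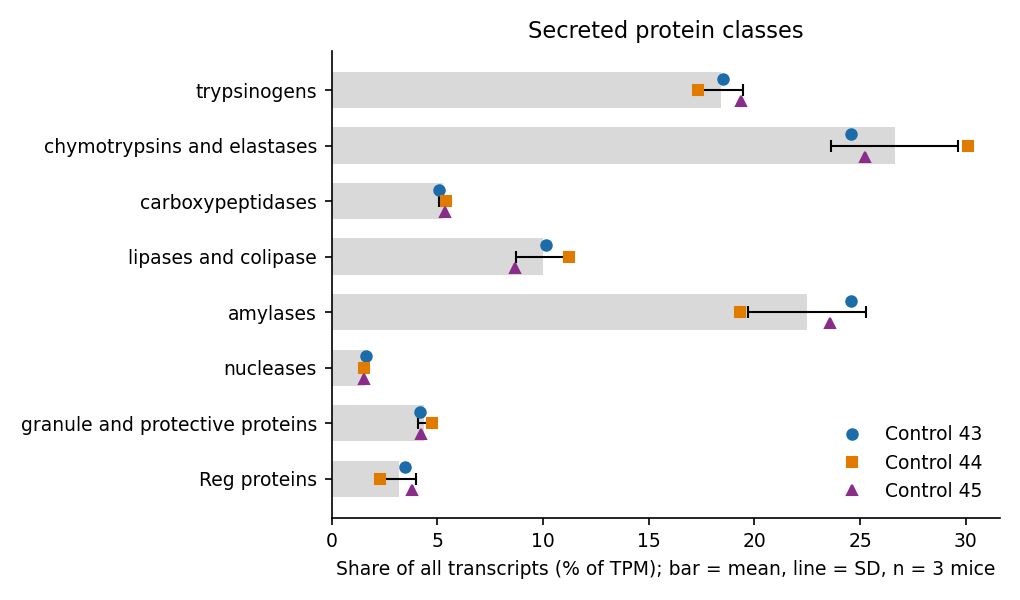
Share of all transcripts (% of TPM, horizontal axis) held by 8 classes of secreted proteins, with the mean of 3 saline mice as the bar, the SD as the line and each mouse as a symbol. Control 44 (orange squares) is highest in chymotrypsins and elastases and in lipases, and lowest in amylases and in Reg proteins.

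Amy2a5, a pancreatic alpha-amylase that cleaves starch, was the most abundant transcript of every mouse. It lies at chr3:113249178-113258699 and stood at 245206, 193143 and 235610 TPM in Control 43, 44 and 45, which is 22.5% ± 2.77 of all transcripts. Control 44 was the lowest of the 3, and the coefficient of variation (CV) between mice, 12.3%, far exceeded the 0.040% that counting noise gives at this depth. The 7 amylases that were matched lie within 430 kb of chromosome 3, a span with no other listed gene, and Amy2a5 made up 99.9% of their transcripts. Amy2b stood at 136, 92.2 and 110 TPM. Amy1, which encodes the salivary and liver form, stood at 41.8, 47.5 and 52.9 TPM. The 3 entries Amy2a2, Amy2a3 and Amy2a4 carried identical values in each mouse (37.7, 20.9 and 25.6 TPM), and none of the 50-base stretches of their reference transcripts is unique to them. Only 46.5% of such stretches of Amy2a5 are unique to it, so the division of reads within this family is uncertain, though that division does not change the family sum. Amy1 (66.7% unique) also shares stretches with Rnpc3, a gene outside the family.

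Chymotrypsinogen Ctrb1 had rank 2 in every mouse, with 97627, 117470 and 107292 TPM. Its product is activated by trypsin and cuts after large hydrophobic residues. Proelastase Cela2a had rank 3 in every mouse, with 77269, 93082 and 73429 TPM. The ranges of Ctrb1 and Cela2a did not overlap each other or that of any neighbour in the order. Cela1 (32927, 41796 and 32098 TPM), Cela3b (23668, 30481 and 25479 TPM) and the chymotrypsin-like protease Ctrl (14255, 18114 and 13851 TPM) were also highest in Control 44. The remaining members were far lower: Ctrc, which can degrade trypsinogen, had 46.8, 53.3 and 47.7 TPM, and Cela3a had 4.02, 7.79 and 4.72 TPM. Control 44 was thus the highest mouse for all 7 genes of the class.

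The 12 trypsinogen genes lie within 560 kb of chromosome 6 (chr6:40964772-41525079), where no other listed gene falls. Trypsinogens are cut to trypsin by enteropeptidase in the gut, and trypsin then activates the other zymogens. Of the class total, 4 genes made up nearly all. Try4 stood at 64883, 60171 and 67901 TPM, and Try5 at 50409, 42372 and 57343 TPM. Prss2 was the steadiest of these 4, with 45604, 47113 and 44432 TPM and a CV of 2.94%. The fourth, 2210010C04Rik, had 22985, 22077 and 20986 TPM. Try5 and Prss2 overlapped over the mice, whereas Try4 stayed above both. The 8 lower members ranged from 811 TPM on average for Prss3 to 0.03 TPM for Gm5409, and this is where the mice differed: Gm2663 stood at 198, 88.8 and 1057 TPM, and 1810009J06Rik at 88.9, 32.3 and 295 TPM. Prss3 (507, 774 and 1154 TPM), Gm5771 (54.1, 78.8 and 182 TPM), Gm10334 (17.7, 16.9 and 39.1 TPM) and Prss1 (8.08, 9.39 and 20.6 TPM) were likewise highest in Control 45. Try10 was level at 378, 394 and 376 TPM. Gm2663 and 1810009J06Rik resemble each other (16.5% and 18.5% unique 50-base stretches), as do Prss1, Prss3, Gm5771 and Gm10334 (33.9 to 45.1%), so the values of single members are uncertain. Try4 (34.4%) and Try5 (52.4%) also share sequence, and their ratio of 1.30 ± 0.12 carries that limit; 92.2% of the stretches of Prss2 are unique.

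Spink1, the trypsin inhibitor that acinar cells secrete with the zymogens, was measured at 902, 761 and 938 TPM. Trypsinogen transcripts exceeded it 205-fold, 227-fold and 207-fold in Control 43, 44 and 45 (213 ± 12.5). The highest ratio was in Control 44, which had the lowest Spink1 level. Serpini2, a serpin of the pancreas, stood at 327, 187 and 319 TPM and was lowest in the same mouse.

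Carboxypeptidases remove residues from the carboxyl end of peptides. Cpb1, which takes basic residues, had 28023, 25420 and 31288 TPM. Cpa1, which takes aromatic and aliphatic residues, had 16623, 22271 and 16687 TPM. Cpb1 stood above Cpa1 in each mouse, with ranges that did not overlap. Control 44 was lowest for Cpb1 and highest for Cpa1, and the class sum was steady, with a CV of 3.58%.

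Fat digestion needs a lipase and its cofactor. Colipase, Clps, which anchors pancreatic lipase to bile-salt-covered fat, had 41392, 43669 and 34540 TPM. Pancreatic triglyceride lipase, Pnlip, had 34919, 37923 and 27778 TPM. The 2 genes rank in the same order over the mice, and their ratio was narrow, at 1.19, 1.15 and 1.24 (1.19 ± 0.046). Bile-salt-stimulated lipase, Cel, had 11049, 13736 and 9625 TPM, and Pnliprp1 had 8555, 11075 and 9470 TPM. Pnliprp2 stood at 1927, 2132 and 2073 TPM, and phospholipase Pla2g1b at 3457, 3720 and 3236 TPM. All 6 were highest in Control 44. Pnlip, Pnliprp1 and Pnliprp2 lie side by side in 107 kb of chromosome 19 (chr19:58670365-58777534) and together held 4.53% of transcripts.

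Rnase1, the secreted pancreatic ribonuclease, stood at 16194, 15348 and 15169 TPM, with a CV of 3.51%. It made up 99.8% of the nuclease class. The lysosomal ribonucleases Rnaset2a and Rnaset2b averaged 16.7 ± 2.58 and 9.87 ± 1.76 TPM, and they share much of their sequence (21.1% and 42.8% unique stretches).

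**Figure D3:**
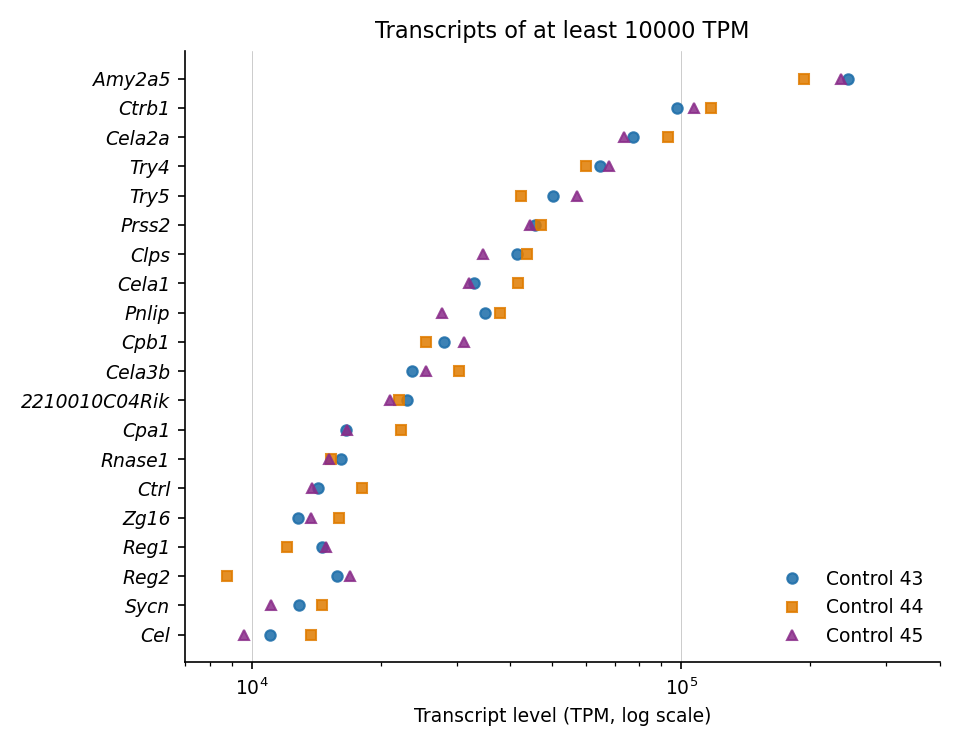
Transcript level (TPM, log scale, horizontal axis) of the 20 genes with a mean of at least 10000 TPM, ordered by that mean, with 1 symbol for each saline mouse. The symbols of a gene mostly lie close together, with Reg2 the widest, at 8782 TPM in Control 44 and 15771 and 16982 TPM in the other mice.

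Granule and protective proteins without digestive activity held 4.16%, 4.73% and 4.24% of transcripts. Zg16, a lectin of the zymogen granule matrix, had 12797, 15986 and 13764 TPM. Syncollin, Sycn, which lines the inner face of the granule membrane, had 12924, 14619 and 11112 TPM. Tissue kallikrein Klk1, a serine protease that releases kinins, had 7918, 8375 and 8852 TPM. Zg16 and Sycn overlapped over the mice and Klk1 lay below both. Gp2, the main glycoprotein of the granule membrane, followed with 2296, 2812 and 2490 TPM. The trefoil peptide Tff2, which protects mucosal surfaces, had 1621, 1763 and 1347 TPM. Dmbt1, a large scavenger receptor of mucosal secretions, was steady at 1487, 1570 and 1564 TPM. Among lower members, Cuzd1 averaged 468 ± 71.4 TPM and the ER protein Erp27 187 ± 2.89 TPM. Clusterin, Clu, an extracellular chaperone, stood at 379 and 350 TPM in Control 43 and 44 and at 974 TPM in Control 45. The immunoglobulin transporter Pigr stood at 0.97, 4.53 and 12.8 TPM, again highest in Control 45. Klk1b1 had no count in any library.

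Reg proteins are small secreted lectins of acinar cells, known to rise in injured pancreas and, for Reg3b and Reg3g, to kill bacteria in the gut. They held 3.47%, 2.31% and 3.80% of transcripts (3.19% ± 0.78). Reg1 had 14621, 12118 and 14899 TPM, and Reg2 had 15771, 8782 and 16982 TPM. Reg2 stood above Reg1 in Control 43 and 45 (ratios of 1.08 and 1.14) and below it in Control 44 (0.725). Reg3b had 2395, 1061 and 3654 TPM, Reg3d 982, 680 and 938 TPM and Reg3a 799, 367 and 749 TPM. Control 44 was the lowest mouse for all 6 measured members, Reg3g included. Reg3g stood at 135 and 96.7 TPM in Control 43 and 44 and at 758 TPM in Control 45. Reg4 had no count in any library. The 6 measured genes are the only listed genes in 98 kb of chromosome 6 (chr6:78370885-78468874). Without Control 44 the class share was 3.63%.

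The 3 gene clusters of trypsinogens, amylases and Reg proteins thus held 18.4%, 22.5% and 3.19% of transcripts within 560, 430 and 98 kb. By chromosome, 25.7% ± 3.01 of transcripts came from chromosome 3 and 24.3% ± 1.46 from chromosome 6. Chromosome 8, with Ctrb1 and Ctrl, gave 12.8% ± 1.15, and chromosome 4, with Cela2a and Cela3b, gave 11.1% ± 1.37. With the enzymes left aside, chromosome 7, which carries Zg16, Sycn and Klk1, led with 31.9% of the remaining transcripts. Abundant transcripts were also short. The median effective length was 777 bases for the first 30 genes and 766 bases for those ranked 31 to 300, against 2155 bases for the 6488 genes of at least 1 FPKM. Genes with an effective length under 1000 bases were 15.2% of those genes and held 60.3% ± 1.96 of transcripts. Length enters the TPM scale itself: by counts, amylases (31.1% ± 3.56) came before chymotrypsins and elastases (20.3% ± 2.53), and the other secreted classes kept their order.

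The translation machinery was the next block after the secreted proteins. The 86 cytosolic ribosomal protein genes held 2.90%, 2.81% and 2.85% of transcripts (2.85% ± 0.043), which was 18.3% ± 0.67 of all transcripts that are not enzymes. They were also the most even group: 83 members of at least 5 TPM had a median CV of 5.17% between mice, and 49 of them were among the 100 most abundant genes. Rpl41 led with 1144, 1148 and 1043 TPM, followed by Rpl10 with 969, 904 and 908 TPM and Rpl35 with 917, 863 and 912 TPM. Their ranges overlapped between Rpl10 and Rpl35, and Rpl41 lay above both. There were 29.6 ± 0.54 enzyme transcripts for each ribosomal protein transcript, a ratio that ranged only from 29.1 to 30.2. Translation factors added 0.396% ± 0.010, led by Tpt1 (1423, 1271 and 1440 TPM) and the elongation factor Eef1a1 (1081, 1182 and 1220 TPM). Aminoacyl-tRNA synthetases, 39 genes, held 0.0174% ± 0.0015.

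The proteins that fold and carry the enzymes were far less abundant as transcripts than their cargo. All 165 listed genes of the secretory pathway together held 0.406%, 0.415% and 0.379% of transcripts, so that 211 ± 8.57 enzyme transcripts stood against each of theirs. Protein disulphide isomerases and oxidases held the largest part, 0.117% ± 0.013. Pdia2, the isomerase restricted largely to the pancreas, led the whole pathway with 735, 811 and 610 TPM, and the widely used P4hb followed with 166, 193 and 147 TPM. Both were highest in Control 44 and lowest in Control 45. Among ER chaperones, Ppib stood at 155, 167 and 135 TPM and Hspa5 (BiP) at 74.1, 66.8 and 71.9 TPM. Translocation, signal peptidase and glycosylation genes were led by Ssr4 with 193, 174 and 165 TPM. Of the p24 cargo receptors, Tmed6 had 220, 215 and 241 TPM and Tmed11 had 101, 75.0 and 123 TPM. The better known members Tmed2 and Tmed10 averaged 53.8 ± 0.42 and 22.2 ± 1.83 TPM, below both in every mouse. ER-associated degradation was led by Herpud1 (107, 89.8 and 75.6 TPM) and Sel1l (68.8, 77.3 and 61.1 TPM). The COPI and COPII coats, 36 genes, held 0.0407% ± 0.0024, with Mcfd2 first at 48.1, 44.6 and 39.8 TPM. In the unfolded protein sensor and ATF4 class, Asns averaged 61.6 ± 8.40 TPM and Atf4 had 36.6, 35.0 and 32.4 TPM. Chac1, a glutathione-degrading target of ATF4, stood at 14.5, 7.89 and 3.60 TPM, the widest range among these named members.

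The regulatory and stimulus-response genes of the acinar cell were rarer still. The acinar transcription factor list held 0.146%, 0.271% and 0.220% of transcripts, of which 92.8% was Nupr1, a small stress-inducible chromatin protein. Nupr1 stood at 1316, 2548 and 2050 TPM, lowest in Control 43. Xbp1, which drives ER capacity, had 80.8, 99.2 and 90.4 TPM. Bhlha15 (Mist1), which organises secretory cells, had 22.1, 20.1 and 21.4 TPM. The factors that define acinar identity were lower, with Rbpjl at 10.3, 10.9 and 8.38 TPM, Ptf1a at 6.48, 5.61 and 8.10 TPM and Nr5a2 at 3.67, 4.00 and 3.32 TPM. Gata4 averaged 4.76 ± 1.89 TPM. These factors ranked far below the enzymes whose genes they are known to control: Ptf1a had rank 1391 of all listed genes and Nr5a2 rank 2421.

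Cckar, the cholecystokinin receptor through which caerulein acts, had 46.5, 48.8 and 45.4 TPM and made up 71.3% of its class. Of the other listed receptors and calcium genes, the calcium pump Atp2a2 (8.06 ± 0.37 TPM) and the calcium sensor Stim1 (3.65 ± 0.27 TPM) reached 1 TPM in all 3 libraries. Orai1 (1.08 ± 0.56 TPM), Gnaq (1.07 ± 0.13 TPM) and Vipr1 (1.03 ± 0.12 TPM) reached it on average only. For granule exocytosis, the SNARE protein Vamp8 had 26.1, 30.4 and 32.0 TPM and the granule GTPase Rab3d had 14.7, 22.6 and 15.5 TPM. Vamp2, Snap23 and Rab27a averaged 2.83 ± 0.78, 2.18 ± 0.24 and 2.06 ± 0.58 TPM. In the ion and water transport list, Aqp12, an aquaporin of acinar cells, had 115, 113 and 101 TPM, and the zinc transporter Slc39a5 had 49.2, 57.3 and 39.5 TPM. Aqp1 and Aqp8 averaged 2.42 ± 0.80 and 1.57 ± 0.77 TPM.

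Islet hormones were a small but clearly measured part. They held 0.0771%, 0.0795% and 0.124% of transcripts in Control 43, 44 and 45, with the highest share in Control 45, and 0.0783% without that mouse. Insulin is made by beta cells from a pair of genes. Ins2 stood at 561, 570 and 896 TPM and Ins1 at 123, 127 and 199 TPM. Their ratio was 4.55, 4.49 and 4.50 (4.52 ± 0.030), so the genes differed between mice in proportion. Glucagon, Gcg, the hormone of alpha cells, had 38.1, 43.6 and 55.0 TPM, and the insulin transcripts exceeded it 18.0 ± 1.97-fold. The beta cell peptide Iapp had 35.9, 38.2 and 70.5 TPM. Somatostatin, Sst, of delta cells had 6.86, 10.3 and 10.8 TPM, and pancreatic polypeptide, Ppy, had 1.65, 2.19 and 3.59 TPM. All 8 listed hormones were highest in Control 45. Islet secretory and identity genes were low: Cpe (7.30, 9.47 and 9.39 TPM) and the granin Chga (5.79, 7.16 and 10.5 TPM) led, while the transcription factors Pdx1, Nkx6-1, Mafa and Neurod1 were each below 0.6 TPM in every library. Beta cell genes such as Slc2a2 (0.17 ± 0.08 TPM), Abcc8 (0.14 ± 0.08 TPM) and Kcnj11 (0.11 ± 0.06 TPM) were also under 1 TPM in every library.

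Among other cell types, the keratins of simple epithelia led the duct list, which held 209, 211 and 274 TPM in sum. Krt18 had 85.9, 96.1 and 118 TPM and Krt8 had 54.1, 37.0 and 56.4 TPM; acinar cells also express both. Krt19, which is more specific to ducts, had 10.4, 8.32 and 12.9 TPM, and Cldn10 had 16.5, 19.6 and 17.4 TPM. Stellate cell and fibroblast genes summed to 114, 106 and 92.6 TPM, with the proteoglycan Dcn first at 57.9, 37.6 and 35.0 TPM and the collagen Col3a1 at 3.82, 3.42 and 5.30 TPM. Endothelial genes summed to 15.7, 22.2 and 19.2 TPM, led by Plvap, the protein of fenestral diaphragms, at 4.81, 7.12 and 5.92 TPM. Smooth muscle genes summed to 5.08, 8.98 and 5.40 TPM. The lists for Schwann cells, mesothelium, hepatocytes and intestinal epithelium each summed to under 5 TPM in every library.

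Macrophage genes summed to 80.2, 47.4 and 67.8 TPM, with the lysozyme Lyz2 at 40.6, 19.5 and 22.0 TPM and the complement genes C1qa, C1qb and C1qc between 5.09 and 10.7 TPM. The B and plasma cell list summed to 8.04, 2.66 and 2.99 TPM, and the T and NK cell list to 3.87, 1.14 and 2.41 TPM. No member of either lymphocyte list reached 1 TPM in all 3 libraries. Control 43 was the highest of the 3 for each of these lists. For macrophages that order rested on Lyz2, which made up 42.0% of the list over the mice. Without Lyz2 the macrophage sum was highest in Control 45. Haemoglobin transcripts were also highest there: Hbb-bs had 78.4, 25.1 and 31.0 TPM, and Hba-a1 had 50.1, 20.1 and 18.4 TPM. Hbb-b1 and the red cell anion exchanger Slc4a1 had no count in any library. The circadian output genes Dbp (4.05, 1.13 and 0.83 TPM), Tef (4.27, 1.50 and 1.13 TPM) and Nr1d2 (3.89, 1.17 and 1.01 TPM) were likewise highest in Control 43; the clock time of each collection is not in the labels. The part of blood content or time of day in other differences between the mice was not tested.

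The 13 adipocyte genes, which in a dissected pancreas can come from attached fat, summed to 130, 106 and 50.7 TPM, and 4 of them reached 1 TPM in all 3 libraries. Fabp4 had 46.3, 45.1 and 28.9 TPM. The adipokine Cfd had 41.7, 22.3 and 4.84 TPM, Car3 had 17.9, 9.38 and 0.45 TPM and Adipoq had 4.31, 2.97 and 0.34 TPM. Control 45 was lowest for each of these 4 genes. Lpl, which is not restricted to fat, was highest there, at 9.14 TPM against 5.78 and 8.41 TPM.

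**Figure D4:**
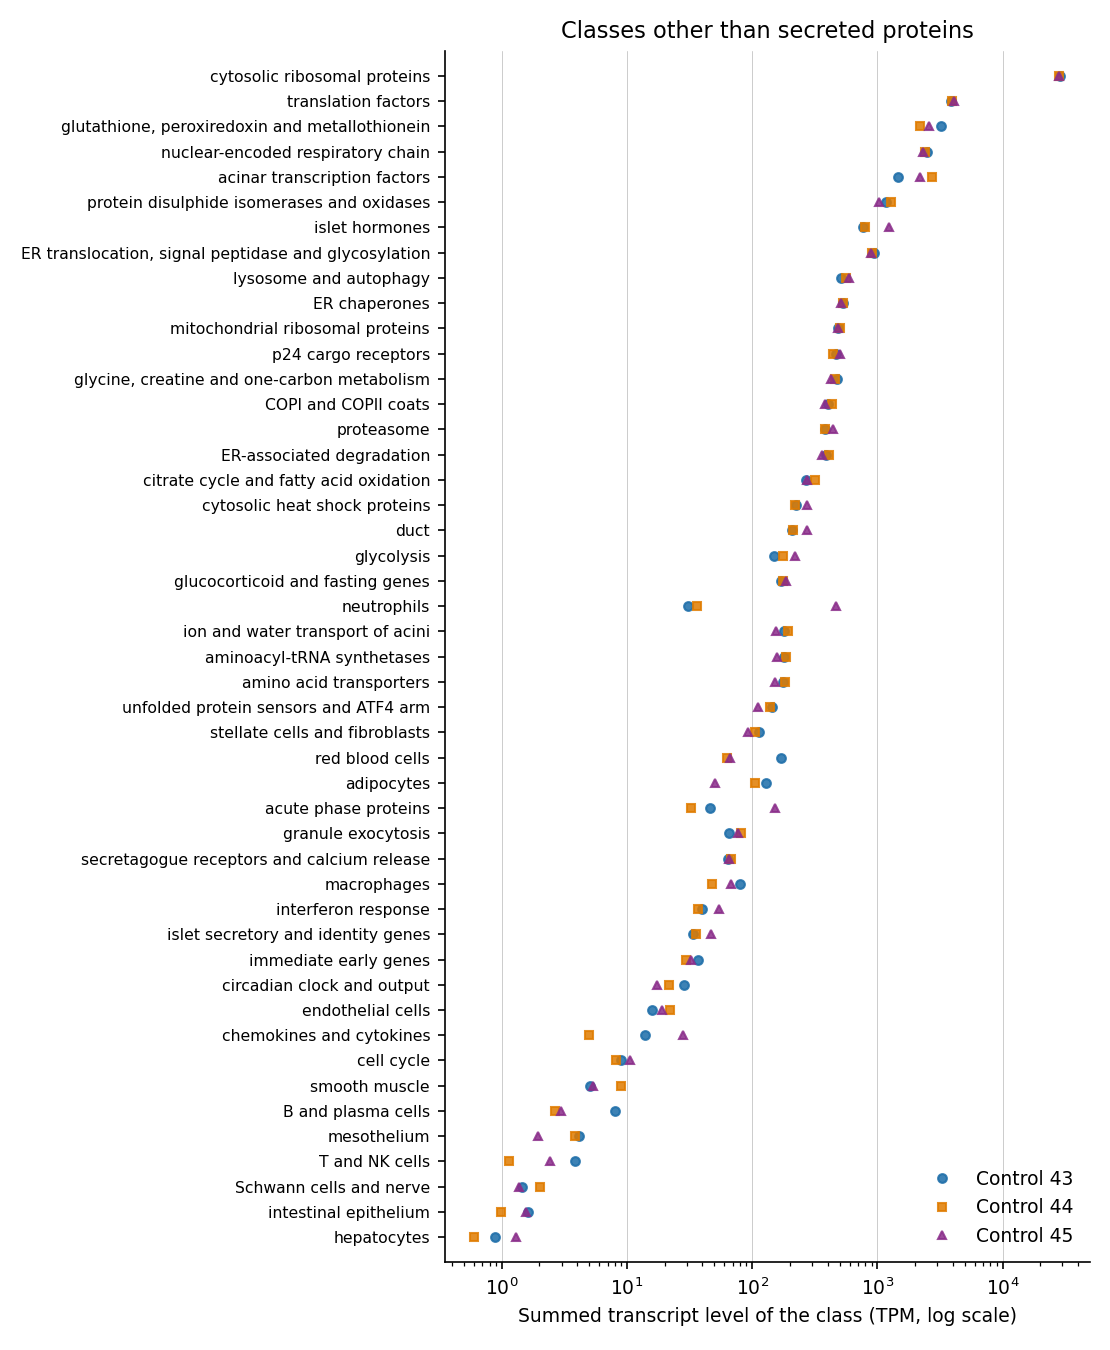
Summed transcript level (TPM, log scale, horizontal axis) of every class other than the secreted proteins, ordered by mean, with 1 symbol for each saline mouse. Ribosomal proteins lie at 28147 to 28991 TPM with the symbols on top of each other, while the neutrophil list is at 31.0 and 36.0 TPM in Control 43 and 44 and at 463 TPM in Control 45.

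The neutrophil list (17 genes, 3 of them at 1 TPM or more in all 3 libraries) stood apart in Control 45, but 89.5% of its sum over the mice was a single gene. Lcn2, an iron-chelating protein that neutrophils carry and that stressed epithelial cells also make, had 19.8, 27.9 and 427 TPM. S100a8 had 4.41, 2.92 and 15.3 TPM and S100a9 2.96, 2.61 and 12.3 TPM, so these were highest in the same mouse at far lower levels. The granule protein Ngp did not follow, with 1.84, 0.60 and 1.44 TPM, and the myeloid peroxidase Mpo had no count in any library. The share of the list was 0.0177% of transcripts over the 3 mice and 0.0033% without Control 45. Among acute phase genes, Saa3, a serum amyloid made outside the liver, had 6.70, 7.39 and 110 TPM, and the list of 12 genes summed to 45.8, 32.7 and 152 TPM. The list had a share of 0.0077% of transcripts over the 3 mice and 0.0039% without Control 45. Complement C3 did not differ in this way, at 23.2, 13.8 and 20.5 TPM. Chemokines and cytokines summed to 13.9, 4.97 and 28.1 TPM, with Ccl5 first at 4.06, 1.52 and 12.8 TPM. The part of inflammatory cells in these values was not tested.

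Of the genes of general metabolism, nuclear-encoded respiratory chain subunits held the most, 0.239% ± 0.009 over 96 genes, led by Cox7c at 106, 90.2 and 99.5 TPM. Enzymes of glycine, creatine and one-carbon metabolism, for which the pancreas is a known site, held 0.0454% ± 0.0024. Ahcy had 94.0, 130 and 153 TPM, Gnmt 41.3, 49.1 and 41.3 TPM, Gamt 45.4, 41.9 and 29.3 TPM and Gatm 48.0, 23.6 and 24.9 TPM. Gamt and Gatm, the enzymes of creatine synthesis, were both highest in Control 43, and Ahcy was lowest there. The glycolysis list summed to 150, 175 and 218 TPM, less than the list of glycine and one-carbon genes in every mouse (473, 460 and 427 TPM). Gapdh, often used as a reference gene, had 50.6, 52.2 and 80.2 TPM. Its level thus differed more between mice than that of any of the 6 most abundant ribosomal protein genes.

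Metallothioneins bind zinc and copper and respond to zinc and glucocorticoids. Mt1 had 1951, 1059 and 1444 TPM, and Mt2 had 662, 404 and 556 TPM. Both were highest in Control 43 and lowest in Control 44. Together with glutathione and peroxiredoxin genes they held 0.268% ± 0.052. Lysosome and autophagy genes held 0.0554% ± 0.0038, with Gabarap at 97.9, 88.6 and 87.7 TPM and cathepsin Ctsl at 73.0, 82.0 and 111 TPM. The 52 proteasome genes held 0.0402% ± 0.0033. Immediate early genes summed to 37.1, 29.6 and 32.3 TPM. Of 19 cell cycle genes, Pcna alone reached 1 TPM in all mice, at 5.00, 4.35 and 5.05 TPM.

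The spread between mice narrowed as levels rose and then widened for the most abundant genes. The median CV was 17.3% for genes of 1 to 5 TPM, 13.8% for 5 to 20 TPM, 11.0% for 20 to 100 TPM and 7.27% for 100 to 1000 TPM. For the 35 genes of at least 1000 TPM it was 11.9%. Counting noise alone would give 10.2%, 6.24%, 3.61%, 1.68% and 0.234% in the same ranges, so the spread of the abundant genes was not limited by depth. Of the 484 genes with a mean of at least 20 TPM, Control 45 was more than 2-fold above both other mice in 10. These were Lcn2, Saa3, Reg3g, Clu, Lrg1, S100a11 and the trypsinogens Gm2663, 1810009J06Rik, Gm5771 and Gm10334. Control 43 was more than 2-fold above both others in 3, all haemoglobin genes, and Control 44 in none. Control 44 was more than 2-fold below both others in 4 genes (Reg3a, Reg3b, Gm2663 and 1810009J06Rik), Control 45 in Cfd and Control 43 in Lrg1. Counted over all 484 genes regardless of size, Control 44 was the mouse farthest from the other two in 216, Control 43 in 138 and Control 45 in 130.

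**Figure D5:**
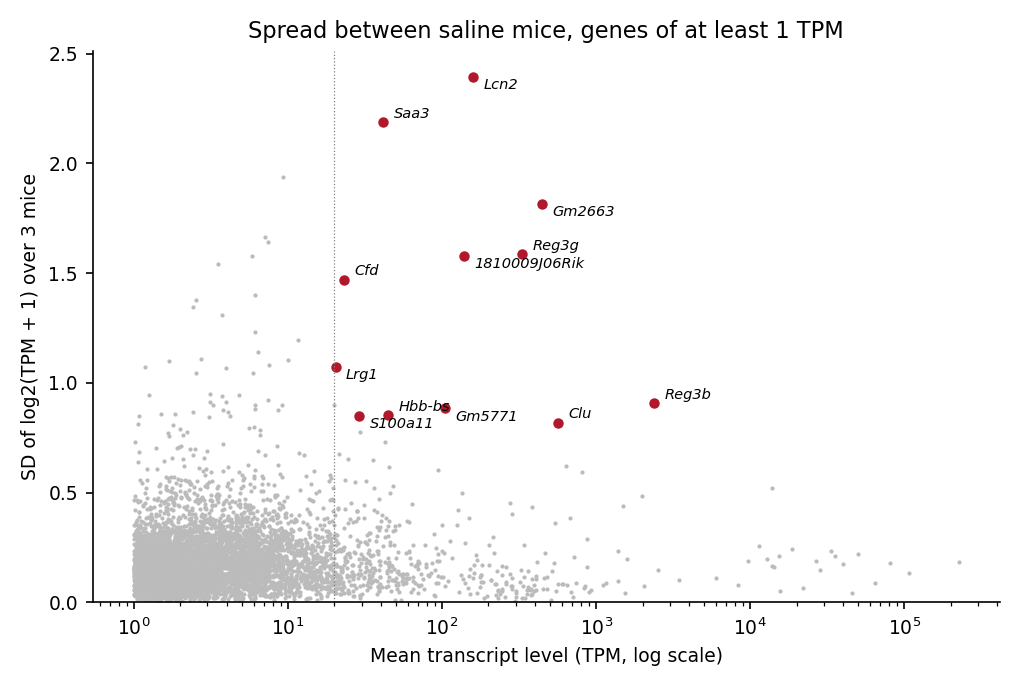
SD of log2(TPM + 1) over the 3 saline mice (vertical axis) against mean level (TPM, log scale, horizontal axis) for genes with a mean of at least 1 TPM, with the 12 widest genes above 20 TPM (dotted line) named. Lcn2 is the widest at 2.39, followed by Saa3 at 2.19 and Gm2663 at 1.82. The most abundant enzymes, Amy2a5, Ctrb1, Cela2a and Try4, lie at 0.184, 0.133, 0.180 and 0.088.

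By class, ribosomal proteins were the most even, and members of the lipase class (median CV 12.5%), chymotrypsins and elastases (13.3%) and ER chaperones (12.6%) lay near the median of genes outside all classes (13.7%). These medians are not matched for level. All 6 lipase genes exceeded 1000 TPM, where counting noise is 0.234%. The median ribosomal protein gene was at 292 TPM, in the range with a median CV of 7.27% over all genes. Trypsinogens (40.1%, 11 members of at least 5 TPM) and Reg proteins (34.5%, 6 members) were wider. The trypsinogen median reflects low members that share much sequence. The abundant Try4, Try5, Prss2 and 2210010C04Rik had CVs of 6.06%, 15.0%, 2.94% and 4.54%, and the share of the trypsinogen class had a CV of 5.64%. The widest were red blood cells (60.5%), adipocytes (66.4%) and neutrophils (92.1%), each from 3 to 5 members of at least 5 TPM.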

How the data were processed

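RNA of the pancreas of 3 saline-treated mice was analysed; the 6 other libraries were not used. Extraction used Trizol, messenger RNA was captured on oligo(dT) beads and the cDNA was circularised, per the labels' protocols. RSEM 1.2.12, Bowtie2 2.2.5, HISAT2 2.0.4 and build GRCm38.p6 are named in the submitters' processing notes; strandedness and annotation version are not given in the sources used here. Per the file headers, the authors deposited read counts, taken here as RSEM's estimated counts since 95.3% of the values used were whole. TPM values, scaled per length and to 1000000 per library, were deposited by the authors and are the main quantity. FPKM values were also deposited by the authors and served for effective lengths (counts over FPKM) and as an alternative. Mean columns were not used. A few single genes are not reported here. Mitochondrially encoded genes and protein sequences were not analysed here.

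Shares are sums of TPM over the sum of all listed genes, given as mean ± SD over 3 mice. The labels name separate mice, so the SD is between animals. Of 17132 genes, 17031 matched the reference by identifier, which gave coordinates. The 55 class lists (1238 genes found, each counted once) and their members were chosen with earlier results of these data known. Named genes are the first 30 by mean TPM, up to 6 leading members of each class (more for secreted, endocrine and acinar classes), the first 15 outside all classes, the 20 with the widest log2(TPM + 1) among those of at least 20 TPM, and cell type genes without a count. Sequence uniqueness is the share of 50-base stretches of a gene's reference transcripts found in no other gene. The share and concentration scripts were tested on simulated data. Python 3.11.15, numpy 2.4.6, pandas 2.3.3 and matplotlib 3.10.9 were used. Alternatives were shares of counts, FPKM, a denominator without enzymes, other level minimums and pseudocounts, and leaving out each mouse.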

Additional observations from a re-analysis of the deposited data

How the results depend on the processing

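The enzyme share was 84.4% by TPM, 84.3% by counts and 84.1 to 84.7% with a mouse left out. The number of genes that hold 90% of transcripts was 23.7 on average by TPM and 33.0 by counts, and the number that hold 50% was 5 and 4.33. By counts, which weight genes by length, the share of all secreted classes was 89.7%, that of cytosolic ribosomal proteins 1.56%, that of genes with TATAAA 52.6% and that of chromosome 6 20.2%, and the effective number of genes was 31.9. With the enzymes left out of the sum, cytosolic ribosomal proteins held 18.3%, genes with TATAAA 21.5% and chromosome 6 22.1%. Over genes with a promoter window alone, a denominator added after seeing the data, genes with TATAAA held 53.3%. The number of genes present in all libraries was 10796 at 0.1 TPM, 1554 at 5 TPM, 814 at 10 TPM and 9782 at 10 estimated counts. The median SD of log2 levels was 0.142 for genes of at least 20 TPM and 0.171 for those of at least 5 TPM. Leaving out each mouse gave 0.089 to 0.127 for it, lowest without Control 44. Of 54 single classes, 43 moved by more than 1 SD under counts. None did under FPKM or any left-out mouse, but neither setting could show such a move. FPKM over its sum is the same quantity as TPM, and with 3 mice leaving out 1 cannot shift a mean by 1 SD. The neutrophil share fell by more than 1.5 times without Control 45 and still lay within 1 SD. Amylases and chymotrypsins with elastases changed places under counts. Depth limits the genes under 1 TPM: their values rest on few counts after the enzymes have taken most of each library. No paired analysis was possible because no groups were compared and the groups share no replicate numbers. Protein length and amino acid make-up were not run, as no protein sequences were used here.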

Other observations

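Several abundant entries lay outside every class. An entry with the numeric identifier 105246811 and no symbol, not in the reference used, ranked 32nd on average, with 1192, 1330 and 1645 TPM. LOC105244208 (509, 503 and 508 TPM) and Gm46894 (359, 280 and 512 TPM) also ranked among the first 100, as did Selenop, the selenium carrier protein, with 214, 268 and 373 TPM. LOC100044627 and LOC100862455 carried identical values in every mouse (192, 162 and 181 TPM). The iron storage subunits Ftl1 and Fth1 had 246, 253 and 233 TPM and 187, 206 and 255 TPM. Tmem97, a sterol-regulated membrane protein, had 56.7, 132 and 92.5 TPM, and Retreg1, an ER-phagy receptor, had 51.2, 20.3 and 35.2 TPM. All genes outside the classes, 15894 in number, held 3.15% ± 0.14 of transcripts, and genes not in the reference held 0.200% ± 0.036.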
